A study of Homo sapiens with 6 samples.

Results

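The 35 genes described here are interferon-stimulated genes, listed as targets and factors of type I interferon and read in RNA libraries from cells grown with or without serum. All 35 had a row among the 58735 genes of the deposited counts table, and 27 of them were among the 13772 genes with enough reads to be tested. The cells were Ovcar8, a human line labelled as ovarian cancer and described by the submitters as high grade serous. The control group was 3 libraries from cells kept for 48 h in RPMI-1640 to which 5% fetal bovine serum (FBS) had been added. The serum-starved group was 3 libraries from the same line kept without FBS for 48 h. No interferon, virus or other agent is named in the labels of either group, and both groups rest on a single cell line. The labels call the libraries triplicates without saying that they came from separate cultures, so p-values reflect only how these libraries spread, which may be technical.

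Type I interferons bind the receptor made of IFNAR1 and IFNAR2, whose kinases JAK1 and TYK2 phosphorylate STAT2. STAT2 and IRF9 are subunits of the factor ISGF3, which binds the interferon-stimulated response element (ISRE) near the start of its target genes, while the GAS element is another sequence through which interferons act. Many target genes encode proteins that sense or block viruses, and cancer cells can express some of them without infection. USP18 acts in the opposite direction, as it removes ISG15 from proteins and dampens signalling at the receptor.

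The promoter sequences show the element that many of these genes carry. RefSeq promoters (GRCh38.p14, 250 bases before to 50 bases after a start, 300 bases each) were held for 27 of the 35 genes, in 34 entries. The ISRE core, taken as 2 GAAA half-sites with 2 bases of any kind between them and searched on both strands, was in 24 of the 34 entries (70.6%) and in 3.57% of all 35116 RefSeq promoters. The GAS core TTCNNNGAA, searched the same way and able to overlap an ISRE match, was in 26.5% of the entries and 7.66% of all promoters. At least 1 entry held an ISRE core for 20 of the 27 genes, and no entry did for DDX58, STAT2, IRF9, IRF1, OAS1, HERC6 and IFI35. A match to these letters is a description and not a measured binding site.

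The 6 promoters printed here belong to OAS3 and MX1, whose levels were higher in every starved library, IFIT1, whose level was lower in every starved library, IFITM3, the gene with the highest mean level, DTX3L, which shares a match with its neighbour PARP9, and IRF1. Capitals mark the ISRE core, read as its reverse complement in IFIT1, and in IRF1 they mark the GAS core. The OAS3 entry holds cores whose first bases lie at -143 and -12, with the start counted as 0, and the first MX1 entry holds 1 at 11. In IFIT1 the cores lie at -116 and -103, and in IFITM3 at -52 and -35. The DTX3L core, at chr3:122564332-122564341, is the same stretch that lies in the PARP9 promoter on the other strand. The IRF1 entry has no ISRE core and has a GAS core at -124.
OAS3 promoter (chr12:112938224-112938523, plus strand): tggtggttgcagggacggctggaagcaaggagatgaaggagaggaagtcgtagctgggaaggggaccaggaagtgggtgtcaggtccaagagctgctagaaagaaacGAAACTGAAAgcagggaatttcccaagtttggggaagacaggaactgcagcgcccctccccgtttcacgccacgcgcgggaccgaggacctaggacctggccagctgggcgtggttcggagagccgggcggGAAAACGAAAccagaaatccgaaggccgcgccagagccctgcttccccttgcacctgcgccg
MX1 promoter (chr21:41420308-41420607, plus strand): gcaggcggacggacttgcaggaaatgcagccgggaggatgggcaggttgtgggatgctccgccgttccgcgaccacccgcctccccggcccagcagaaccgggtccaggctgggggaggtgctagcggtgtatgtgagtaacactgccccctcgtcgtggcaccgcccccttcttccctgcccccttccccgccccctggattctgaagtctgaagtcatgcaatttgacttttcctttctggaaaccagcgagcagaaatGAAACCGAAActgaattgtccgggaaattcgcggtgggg
IFIT1 promoter (chr10:89392373-89392672, plus strand): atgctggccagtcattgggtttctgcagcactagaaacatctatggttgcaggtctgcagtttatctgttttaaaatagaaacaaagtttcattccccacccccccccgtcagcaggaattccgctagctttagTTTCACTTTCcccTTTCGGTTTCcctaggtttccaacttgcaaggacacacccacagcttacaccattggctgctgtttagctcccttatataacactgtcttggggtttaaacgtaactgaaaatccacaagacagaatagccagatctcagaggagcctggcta
IFITM3 promoter (chr11:320811-321110, minus strand): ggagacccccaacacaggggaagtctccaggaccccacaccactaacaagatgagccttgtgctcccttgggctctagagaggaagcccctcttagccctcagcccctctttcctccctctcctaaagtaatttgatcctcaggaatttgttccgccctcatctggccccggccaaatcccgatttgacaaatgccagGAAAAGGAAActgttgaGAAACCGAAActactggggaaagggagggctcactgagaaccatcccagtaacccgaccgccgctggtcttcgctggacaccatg
DTX3L promoter (chr3:122564088-122564387, plus strand): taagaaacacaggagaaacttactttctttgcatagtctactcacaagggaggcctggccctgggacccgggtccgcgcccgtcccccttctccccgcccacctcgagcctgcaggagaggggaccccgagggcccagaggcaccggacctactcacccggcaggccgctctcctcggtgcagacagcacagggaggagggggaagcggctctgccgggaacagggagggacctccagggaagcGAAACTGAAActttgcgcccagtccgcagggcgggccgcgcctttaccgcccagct
IRF1 promoter (chr5:132490724-132491023, minus strand): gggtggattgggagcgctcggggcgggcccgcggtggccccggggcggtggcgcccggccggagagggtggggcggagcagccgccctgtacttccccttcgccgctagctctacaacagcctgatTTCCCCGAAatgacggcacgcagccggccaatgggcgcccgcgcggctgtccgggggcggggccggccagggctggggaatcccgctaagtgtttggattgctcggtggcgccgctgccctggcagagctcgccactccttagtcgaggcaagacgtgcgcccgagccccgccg

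The libraries held 16379416 to 19558484 counts. Of 12 ovarian carcinoma markers 8 were tested, with KRT8, KRT18, KRT7, MSLN and PAX8 well expressed and with MUC16, SOX17 and MECOM at 0 in all 6 libraries. The other tested markers were low, with 15 to 86 counts per library for EPCAM, 11 to 61 for WT1 and 5 to 17 for CDH1. KRT19 had 0 to 4 counts and was not tested. Of 8 immune cell markers 1 was tested, and their summed level was 2.09 to 4.03 CPM (counts relative to library size, scaled between libraries by TMM) with FBS and 1.98 to 3.13 CPM in starvation, with CD3E and NKG7 at 0 throughout. Of 5 fibroblast markers 1 was tested, COL1A1, at 318 to 577 CPM with FBS and 762 to 831 CPM in starvation without overlap (log2 fold change 0.70, edgeR adjusted p = 0.457), and COL1A2 and DCN were at 0 throughout. Of 3 endothelial markers 1 was tested, VWF, at 0.260 to 0.477 CPM with FBS and 1.32 to 4.21 CPM in starvation without overlap (2.94, edgeR adjusted p = 0.134). VWF had enough reads to be tested only through its starved libraries. The part of these markers in the values of the interferon-stimulated genes was not tested. The serum-starved replicate 3 stood apart. Its summed level of the 35 genes was 514 CPM, against 1129 and 1045 CPM in the other starved libraries and 802, 938 and 984 CPM with FBS. The IFITM genes made up 203 CPM of it, against 555 and 562 CPM in the other starved libraries. With FBS they made up 444, 544 and 610 CPM. The median log2 deviation of the tested members from their mean over all libraries was -0.09 in starved replicate 3. It was 0.10 and 0.35 in the other starved libraries and -0.22, -0.11 and -0.04 with FBS. Across the 27 tested genes, the log2 difference of starved replicate 3 from the other 2 starved libraries correlated with GC content at Spearman's rho -0.78. Across 13768 genes the rho was -0.59, while starved replicate 1 gave 0.79 and 0.57 over the same 2 sets. The FBS libraries also leaned with GC content, at -0.58, 0.51 and 0.27 in replicates 1, 2 and 3 across all genes. Across the members they gave -0.38, 0.14 and 0.35. The genes share these libraries, and the 3 differences of a gene within a group add up to 0. A lean in 1 library is thus tied to an opposite lean among the others, so the correlations are descriptions and not separate observations. The part of GC content and length in the results was not tested.

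**Figure D1:**
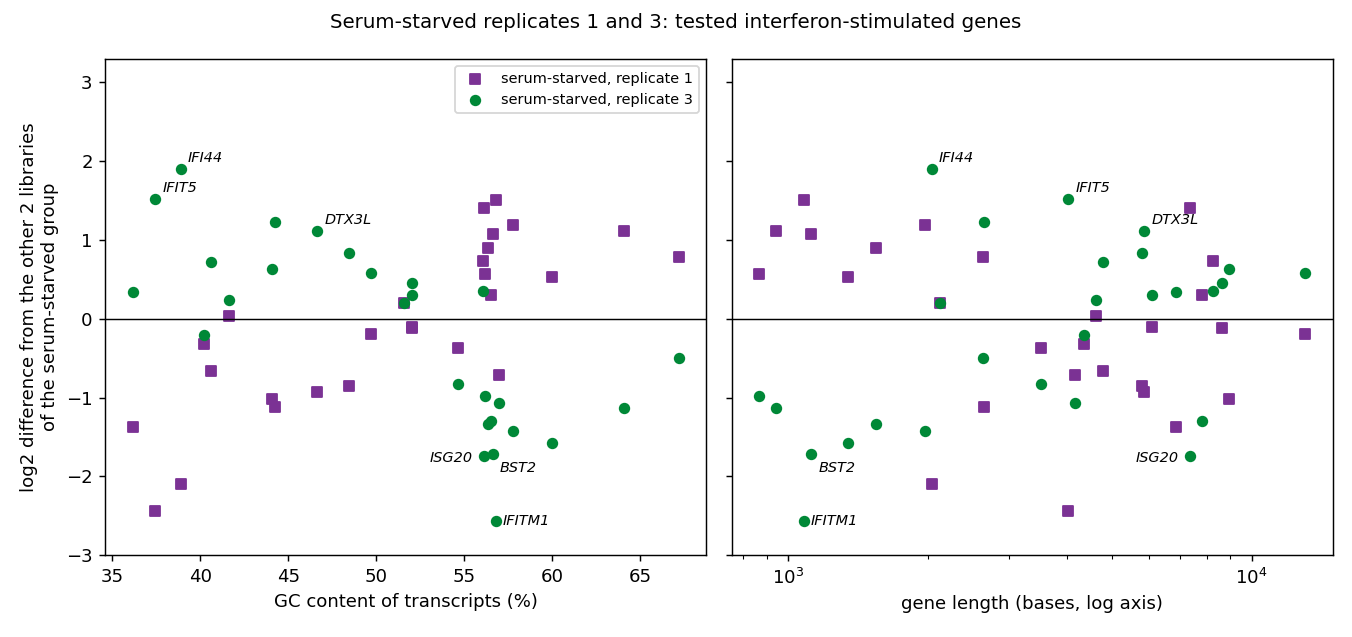
Each point is 1 of the 27 tested interferon-stimulated genes in serum-starved replicate 1 (squares) or replicate 3 (circles). The y axis is its log2 difference from the other 2 starved libraries, against the GC content of its transcripts (left, percent) and gene length (right, bases, log axis). GC-rich genes sit high in replicate 1 and low in replicate 3, and IFITM1 lies lowest at -2.57. The differences of a gene within the group are tied to each other, so the 2 patterns are not separate observations.

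None of the 27 tested genes passed the test between the groups, so no gene of this family can be said to have risen or fallen in serum starvation. By the quasi-likelihood test of edgeR, adjusted over all genes after Benjamini and Hochberg, 0 passed an adjusted p of 0.05. Over all tested genes 0.283% were called, 33 higher and 6 lower in starvation, or 75 higher and 50 lower (0.908%) after a correction for GC content and length. At an unadjusted p under 0.05, 4 of the 27 were higher (STAT2, IRF1, OAS3 and USP18) and 0 lower, against 6.01% and 4.37% of all genes. OAS3 had enough reads to be tested only through its starved libraries, so its place here is not independent of the filter. limma-voom called 0 of the 27 and 0.276% of all genes, and DESeq2 called 1 of the 27, USP18, and 1.08% of all genes. The fold change was above 0 for 16 and below 0 for 11, where all genes had 48.5% above and 51.5% below. The median log2 fold change was 0.37, against -0.02 over all tested genes, and single genes ranged from -1.14 to 3.18.

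Without regard to the test, 5 genes had every starved library above every FBS library: STAT2, IRF7, OAS3, USP18 and MX1. This is 18.5% of the 27, where 10.04% of all tested genes did the same. OAS3 had enough reads to be tested only through its starved libraries, so the filter on low counts favoured such a split. IFIT1 alone had every starved library below every FBS library, 3.70% against 7.65% of all genes. Leaving out starved replicate 3, a choice made after seeing the data, gave 10 genes above (37.0%, against 17.2% of all genes), adding BST2, IFI35, IFI6, IRF1 and IFITM1. It gave 2 below, IFIT1 and IFIT5 (7.41%, against 18.0%). In bulk RNA a smaller share of cells expressing a gene and less RNA per cell cannot be told apart.

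**Figure D2:**
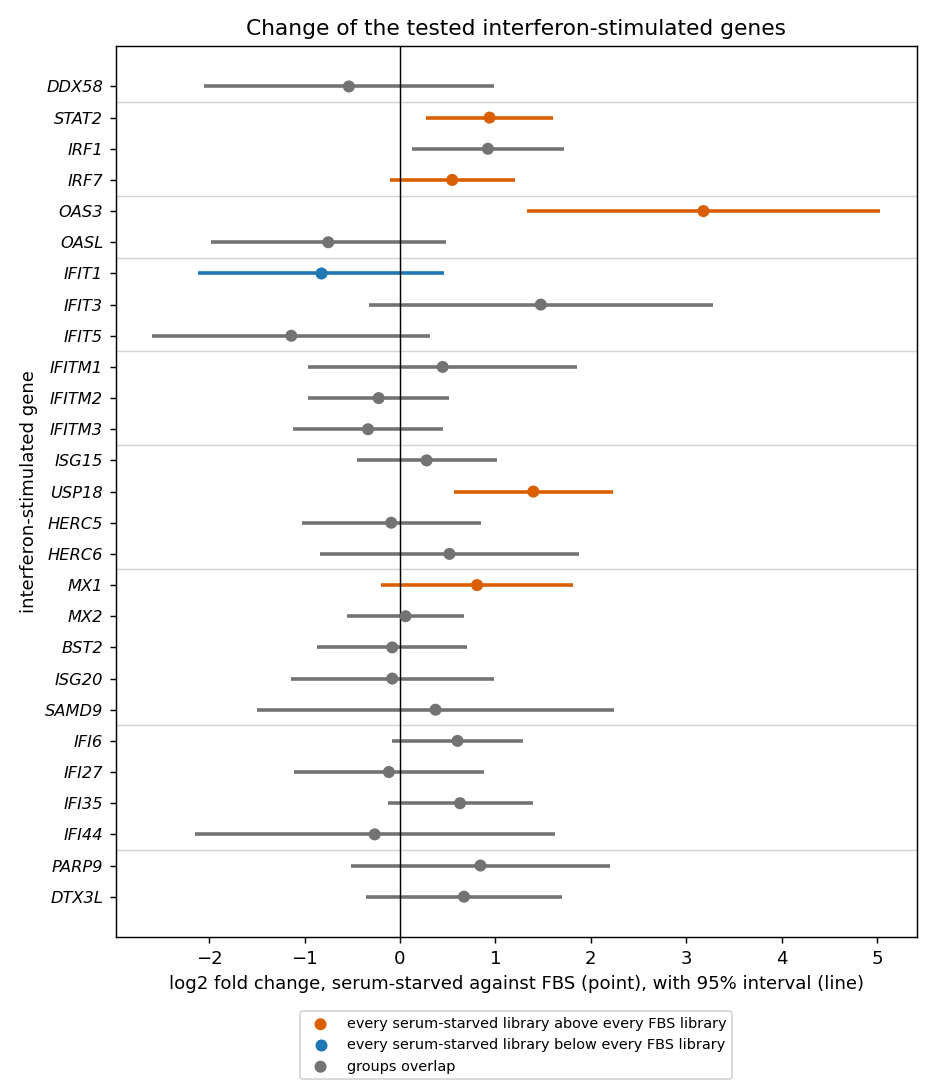
Points are edgeR log2 fold changes of serum-starved against FBS libraries (x axis) for the 27 tested genes, grouped by role, with 95% intervals as lines. The intervals of STAT2, IRF1, OAS3 and USP18 lie above 0, and the colours mark the 5 genes whose starved libraries were all higher and the 1 whose were all lower. OAS3 had enough reads to be tested only through its starved libraries.

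The RNA sensors were low, and IFIH1 and DHX58 were at the edge of detection. DDX58 encodes RIG-I, a cytoplasmic sensor of viral RNA, and was at 1.98, 1.07 and 0.845 CPM with FBS and 0.748, 1.15 and 0.793 CPM in starvation. These groups overlapped, and the log2 fold change was -0.54 (edgeR adjusted p = 0.850). IFIH1, which encodes the sensor MDA5, had 1, 0 and 0 counts with FBS and 0, 3 and 20 in starvation, so nearly all of its reads came from starved replicate 3. DHX58, which encodes the regulatory sensor LGP2, had 0, 1 and 0 counts with FBS and 7, 1 and 0 in starvation. Neither IFIH1 nor DHX58 passed the filter on low counts. A count of 3, the limit that a count of 0 allows, was 0.132 to 0.204 CPM across libraries.

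Of the 4 transcription factors, STAT2, IRF1 and IRF7 were tested and all had a fold change above 0. STAT2 (ENSG00000170581, GRCh38 chromosome 12, 56341597 to 56360155), a subunit of ISGF3, was at 16.3, 15.9 and 27.2 CPM with FBS and 36.0, 34.4 and 43.4 CPM in starvation. Every starved library lay above every FBS library. The means were 19.8 ± 6.39 and 37.9 ± 4.79 CPM (SD, n = 3 each), and the log2 fold change was 0.94 (SE 0.31, 95% interval 0.28 to 1.60), with an edgeR adjusted p of 0.308 that did not pass. Its fold change stayed above 0 in all 18 planned settings in which it was tested, from 0.75 to 1.24.

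IRF1 (ENSG00000125347, chromosome 5, 132481609 to 132490798), a factor induced early by interferons through the GAS element, was at 12.1, 11.6 and 13.1 CPM with FBS. In starvation it was at 24.5 and 33.7 CPM in replicates 1 and 2 and at 11.6 CPM in replicate 3, the lowest of the 6 libraries. With all libraries the log2 fold change was 0.92 (SE 0.38) and the edgeR adjusted p was 0.401. Without starved replicate 3 it was 1.24 (SE 0.30) with an adjusted p of 0.0326, in a fit that called 1.81% of all genes, and with the GC and length correction and without that library it was 0.89 with an adjusted p of 0.126. Without starved replicate 2 it was 0.55. Of its exon bases 22.0% are shared with genes on the other strand, and whether the counting used strand is not given in the sources used here.

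IRF7, which drives interferon gene transcription, was at 23.7, 23.2 and 23.2 CPM with FBS and at 47.5, 28.9 and 26.2 CPM in starvation. The starved libraries were all higher, with replicate 1 far above the others. Its log2 fold change was 0.55 (SE 0.31, edgeR adjusted p = 0.565), and 0.25 without starved replicate 1. IRF9, the DNA-binding partner in ISGF3, had 2, 9 and 2 counts with FBS and 0, 14 and 0 in starvation and was not tested, with 48.4% of its exon bases shared with another gene on the same strand.

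**Figure D3:**
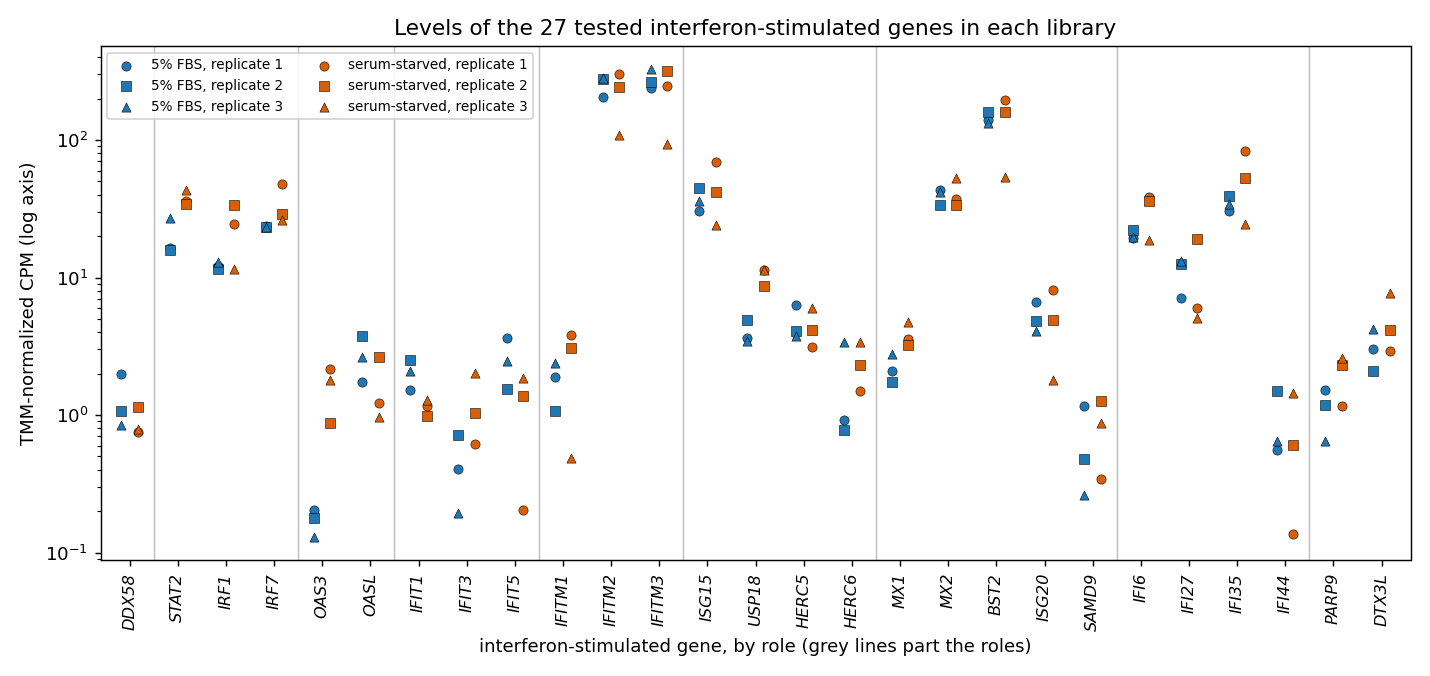
Points are TMM-normalized CPM (log axis) of the 27 tested interferon-stimulated genes in each of the 6 libraries, FBS in blue and serum-starved in orange, with symbols for the replicates and grey lines between roles. OAS3, USP18, STAT2, IRF7 and MX1 show no overlap between the colours with the starved libraries higher, and serum-starved replicate 3 is the lowest point for IFITM1, IFITM2, IFITM3, ISG15 and BST2.

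The OAS enzymes make oligoadenylates that activate RNase L when they meet double-stranded RNA. OAS3 (ENSG00000111331, chromosome 12, 112938352 to 112973249) had 4, 3 and 2 counts with FBS and 32, 16 and 41 counts in starvation, or 0.203, 0.179 and 0.130 CPM against 2.17, 0.878 and 1.81 CPM. Each starved library was above each FBS library. Pooled over libraries this is 9 against 89 counts, a ratio per total count of 9.26 (exact 95% interval 4.67 to 20.9, counting error only). The log2 fold change was 3.18 (SE 0.88, 95% interval 1.33 to 5.03) with an edgeR adjusted p of 0.201, the lowest of the 27 genes but above the threshold. Over the planned settings in which OAS3 was tested its adjusted p was between 0.0532 and 0.987. Only the starved libraries gave OAS3 enough reads to be tested, so the filter on low counts favoured a difference in this direction. The FBS counts are close to the limit of detection, and the size of the fitted fold depends on the counts added in the fit.

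The neighbouring genes OAS1 and OAS2 were almost without reads. OAS1 had 0 counts in every library except starved replicate 2, with 2 counts, and OAS2 had 1 count in FBS replicate 1 and 0 in the other libraries. OASL, an OAS-like protein without the enzyme activity, was at 1.73, 3.75 and 2.66 CPM with FBS and 1.22, 2.63 and 0.969 CPM in starvation. Those groups overlapped, and the log2 fold change was -0.75 with an SE of 0.58 (edgeR adjusted p = 0.715).

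The IFIT proteins bind viral RNA, and the 4 genes lie together on chromosome 10. IFIT1 (ENSG00000185745, 89392546 to 89406486) was at 1.52, 2.50 and 2.08 CPM with FBS and 1.16, 0.988 and 1.28 CPM in starvation. The groups did not overlap, with starvation lower. The log2 fold change was -0.83 (SE 0.61, 95% interval -2.12 to 0.46) and the edgeR adjusted p was 0.694. IFIT3, a binding partner of IFIT1, was at 0.406, 0.715 and 0.195 CPM with FBS and 0.612, 1.04 and 2.03 CPM in starvation. Its groups overlapped, with a log2 fold change of 1.48 (SE 0.86, edgeR adjusted p = 0.573), and 0.90 without starved replicate 3. IFIT5 was at 3.66, 1.55 and 2.47 CPM with FBS and 0.204, 1.37 and 1.85 CPM in starvation, a log2 fold change of -1.14 (SE 0.69, edgeR adjusted p = 0.591) with starved replicate 1 far below the others, and -0.65 without that library. IFIT2 had 4, 5 and 0 counts with FBS and 0, 10 and 23 in starvation and was not tested. IFIT1, IFIT2 and IFIT3 lie within LIPA on the other strand, which had 797, 666 and 819 counts with FBS and 483, 1628 and 1844 in starvation. LIPA shares 1.6% of the exon bases of IFIT2 and 0.0% of those of IFIT1 and IFIT3. The part of LIPA reads in these low counts was not tested.

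The IFITM membrane proteins block the entry of enveloped viruses and held much of the family's signal. Levels of genes were set side by side by the authors' FPKM, which divides by gene length. That length counts every annotated exon base, so genes with many annotated transcripts can read low. With FBS, MX2 (13047 bases) was at 39.6 CPM but 2.96 FPKM, and ISG15 (941 bases) at 36.9 CPM and 38.3 FPKM. By FPKM, IFITM3 led with a mean of 200.3 with FBS and 159 in starvation. IFITM2 followed with 161 and 138 FPKM, and BST2 with 126 and 119 FPKM. These 3 genes held 81.2 to 83.3% of the summed FPKM of the 35 genes with FBS and 73.1, 77.7 and 65.9% in the starved libraries. ISG15, IFI6, IFI35, IRF7 and STAT2 took the next ranks in that order in both groups, from 38.3 down to 3.16 FPKM with FBS and from 46.5 down to 6.05 FPKM in starvation. USP18 was at 1.82 FPKM and rank 11 with FBS and at 4.81 FPKM and rank 9 in starvation. The ranges over the 6 libraries of IFITM3 (68.0 to 237 FPKM), IFITM2 (68.1 to 192 FPKM) and BST2 (46.9 to 171 FPKM) overlapped. Within each library BST2 was below both IFITM2 and IFITM3, while the order of IFITM2 and IFITM3 changed between libraries. IFITM2 was above IFITM3 in starved replicates 1 (192 against 180.2 FPKM) and 3 (68.1 against 67.97 FPKM).

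IFITM3 was at 238, 265 and 327 CPM with FBS and 248, 316 and 94.1 CPM in starvation. Only starved replicate 3 lay outside the FBS range. The log2 fold change was -0.33 (95% interval -1.12 to 0.45, edgeR adjusted p = 0.812), and 0.03 without that library. IFITM2 was at 205, 278 and 281 CPM with FBS and 303, 244 and 108 CPM in starvation. The same library was lowest, and the log2 fold change was -0.22 with all libraries (edgeR adjusted p = 0.877) and 0.10 without it. IFITM1, at 1.88, 1.07 and 2.40 CPM with FBS and 3.81, 3.07 and 0.484 CPM in starvation, had a log2 fold change of 0.45 (edgeR adjusted p = 0.871), and 0.94 without starved replicate 3. It shares 32.5% of its exon bases with IFITM2 on the same strand, so the split of reads between them is uncertain.

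ISG15 is a ubiquitin-like protein that is attached to other proteins, HERC5 is its main ligase and USP18 its protease. USP18 (ENSG00000184979, chromosome 22, 18149899 to 18177397) was at 3.61, 4.89 and 3.44 CPM with FBS and 11.4, 8.67 and 11.4 CPM in starvation. The lowest starved library was above the highest FBS library. The means were 3.98 ± 0.789 and 10.5 ± 1.58 CPM (SD, n = 3 each), a 2.64-fold difference with a log2 fold change of 1.40 (SE 0.40, 95% interval 0.57 to 2.23) and an edgeR adjusted p of 0.219. USP18 passed in DESeq2 (1.40, adjusted p = 0.0331), which called 1.08% of all genes, and in edgeR with the GC and length correction (1.49, adjusted p = 0.0494), which called 0.908%. It passed in none of the other planned settings, whose largest adjusted p was 0.987, and its fold change was above 0 in all 18, from 1.04 to 1.58. USP18 also differed little between the starved libraries, with replicate 3 at 0.19 above the other 2 on the log2 scale.

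ISG15 itself was at 30.2, 44.6 and 35.9 CPM with FBS and 68.7, 41.5 and 24.3 CPM in starvation. The starved libraries lay on both sides of the FBS libraries, and the log2 fold change was 0.28 (95% interval -0.45 to 1.01, edgeR adjusted p = 0.835). HERC5 was at 6.35, 4.11 and 3.77 CPM with FBS and 3.13, 4.17 and 6.03 CPM in starvation. HERC6, a related protein, was at 0.915, 0.774 and 3.38 CPM with FBS and 1.5, 2.31 and 3.39 CPM in starvation. Both overlapped between groups, with log2 fold changes of -0.09 for HERC5 (edgeR adjusted p = 0.964) and 0.52 for HERC6 (0.834). For HERC6 it was 0.18 without starved replicate 3 and 1.51 without FBS replicate 3.

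Among the antiviral effectors, the paired dynamin-like GTPases on chromosome 21 were at different levels. MX1 (ENSG00000157601, 41420304 to 41459214) was at 2.08, 1.73 and 2.79 CPM with FBS and 3.60, 3.24 and 4.71 CPM in starvation. All starved libraries were higher. The log2 fold change was 0.81 (SE 0.48, 95% interval -0.20 to 1.81, edgeR adjusted p = 0.583), and 0.51 with the GC and length correction. MX2 was at 43.3, 33.4 and 42.1 CPM with FBS and 37.0, 34.0 and 52.8 CPM in starvation. Its groups overlapped, with a log2 fold change of 0.06 (95% interval -0.56 to 0.67, edgeR adjusted p = 0.965) that turned to -0.30 with the GC and length correction.

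BST2, the tetherin that holds budding virions at the cell surface, was at 140, 159 and 134 CPM with FBS and 195, 160 and 53.9 CPM in starvation. Starved replicates 1 and 2 were above the FBS libraries and replicate 3 far below them. The log2 fold change was -0.08 (edgeR adjusted p = 0.963), and 0.30 without replicate 3. ISG20, an RNA exonuclease, was at 6.66, 4.83 and 4.09 CPM with FBS and 8.09, 4.94 and 1.81 CPM in starvation, with a log2 fold change of -0.08 (edgeR adjusted p = 0.973). SAMD9, a restriction factor for poxviruses, had a log2 fold change of 0.37 at a mean of 0.635 CPM with FBS and 0.828 CPM in starvation (edgeR adjusted p = 0.923). RSAD2, which encodes viperin, had 4 counts in starved replicate 3 and 0 in every other library.

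The 5 IFI genes are named for their induction by interferon. IFI6, a mitochondrial protein, was at 19.3, 22.2 and 19.6 CPM with FBS and 38.3, 35.8 and 18.7 CPM in starvation. IFI35 was at 30.5, 38.9 and 34.3 CPM with FBS and 82.7, 53.3 and 24.7 CPM in starvation. In both genes starved replicates 1 and 2 were above all FBS libraries and replicate 3 was below them. The log2 fold changes were 0.60 for IFI6 (SE 0.33, edgeR adjusted p = 0.543) and 0.63 for IFI35 (SE 0.36, edgeR adjusted p = 0.568), and 0.86 and 0.97 without replicate 3. Without starved replicate 1 they were 0.43 for IFI6 and 0.18 for IFI35. IFI27 was at 7.06, 12.6 and 13.2 CPM with FBS and 5.98, 19.2 and 5.06 CPM in starvation, with overlapping groups (-0.12, edgeR adjusted p = 0.957). IFI44 was near 1 CPM in both groups (-0.26, edgeR adjusted p = 0.946), and IFI44L had a single count, in starved replicate 2.

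PARP9 and DTX3L form a complex of an ADP-ribosyltransferase family protein and a ubiquitin ligase, and the genes stand head to head on chromosome 3. PARP9 was at 1.52, 1.19 and 0.650 CPM with FBS and 1.16, 2.31 and 2.6 CPM in starvation. DTX3L was at 3.00, 2.09 and 4.22 CPM with FBS and 2.92, 4.17 and 7.66 CPM in starvation. Both overlapped between groups, with log2 fold changes of 0.84 for PARP9 (edgeR adjusted p = 0.707) and 0.67 for DTX3L (edgeR adjusted p = 0.688). For DTX3L it was 0.20 without starved replicate 3.

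Starved replicate 3 also differed from the other starved libraries with gene length, less closely than with GC content in these members (rho 0.44 against -0.78). Of the 17 tested members shorter than the median gene (4798.5 bases), 11 were lower in it than in the other 2 starved libraries (64.7%, with a median log2 difference of -0.83). Of the 10 longer members 2 were lower, with a median of 0.40. All tested genes followed the same order, with 63.0% of the shorter and 36.3% of the longer genes lower and medians of -0.35 and 0.31. IFITM1 (-2.57), ISG20 (-1.75), BST2 (-1.71) and IFITM3 (-1.57) were the lowest members, and IFI44 (1.89), IFIT5 (1.52) and IFIT3 (1.23) the highest. ISG20 is in the longer class and the 3 highest members are in the shorter class.

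Another 83 interferon pathway genes were read in 5 lists: ligands, receptors and kinases, the sensing pathway, negative regulators, and 45 other interferon-induced genes, of which 33 were tested. Of the 83, 58 were tested and 0 passed in edgeR. At an unadjusted p under 0.05, 7 of the 58 were higher and 1 lower, where 6.01% and 4.37% of all tested genes were. Their median log2 fold change was 0.15, against -0.02 over all tested genes. The 10 interferon ligand genes, IFNB1 among them, were at 0 counts except for 1 count of IFNE in FBS replicate 2. Of 10 receptors and kinases 8 were tested: IFNAR1 was at 13.2 ± 3.26 CPM with FBS and 9.35 ± 2.25 CPM in starvation (log2 fold change -0.50, edgeR adjusted p = 0.687), and the kinases JAK1 (0.34, edgeR adjusted p = 0.753) and TYK2 (0.43, edgeR adjusted p = 0.694) did not pass. IFNAR2 was not tested, at 22, 2 and 8 counts with FBS and 0, 12 and 4 in starvation, with 83.2% of its exon bases shared with other genes.

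Of 10 genes that lead from nucleic acid sensing to interferon 9 were tested. TRIM25, the ubiquitin ligase that activates RIG-I, was at 76.3 ± 4.75 CPM with FBS and 121 ± 10.1 CPM in starvation, with no overlap and a log2 fold change of 0.67 (edgeR adjusted p = 0.397). The log2 fold changes were 0.54 for the adaptor MAVS, -0.83 for the kinase TBK1, 0.12 for IRF3, 0.24 for TMEM173 (STING) and -0.53 for MB21D1 (cGAS), with edgeR adjusted p from 0.557 to 0.939. All 8 negative regulators were tested. SOCS3, an inhibitor of JAK kinases, was at 28.2, 25.9 and 16.8 CPM with FBS and 13.5, 12.5 and 7.66 CPM in starvation, lower in every starved library (-1.08, SE 0.35, edgeR adjusted p = 0.290). SOCS1, its relative, was at 2.29, 2.44 and 1.75 CPM with FBS and 5.91, 4.78 and 3.17 CPM in starvation, higher in every starved library (1.09, SE 0.47, edgeR adjusted p = 0.429).

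Among other interferon-regulated genes, PARP10 and TAPBP had the smallest p. PARP10, an ADP-ribosyltransferase, was at 13.1, 14.2 and 22.7 CPM with FBS and 62.7, 36.9 and 32.1 CPM in starvation. Every starved library was higher, and the log2 fold change was 1.40 (SE 0.34) with an edgeR adjusted p of 0.129. Without the low-count filter PARP10 passed in edgeR (adjusted p = 0.0185), in a fit that called 0.541% of all genes. It also passed in DESeq2 (adjusted p = 0.0180). In edgeR it passed with the GC and length correction (1.10, adjusted p = 0.0443) and without starved replicate 3 (1.58, adjusted p = 0.00614). With that correction it further passed with a block by replicate number (1.12, adjusted p = 0.0497) and without starved replicate 3 (1.12, adjusted p = 0.0498). TAPBP, tapasin of the peptide loading complex, was at 80.2, 86.3 and 101 CPM with FBS and 170, 180 and 159 CPM in starvation, with no overlap (0.93, SE 0.28, edgeR adjusted p = 0.256). It passed in DESeq2 (0.0368) and in edgeR without starved replicate 3 (0.0400). ADAR, an RNA-editing enzyme, was at 111 ± 16.6 and 178 ± 52.1 CPM (0.69, edgeR adjusted p = 0.438), and EIF2AK2, the kinase PKR, at 10.3 ± 2.36 and 9.30 ± 2.51 CPM (-0.15, edgeR adjusted p = 0.928).

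**Figure D4:**
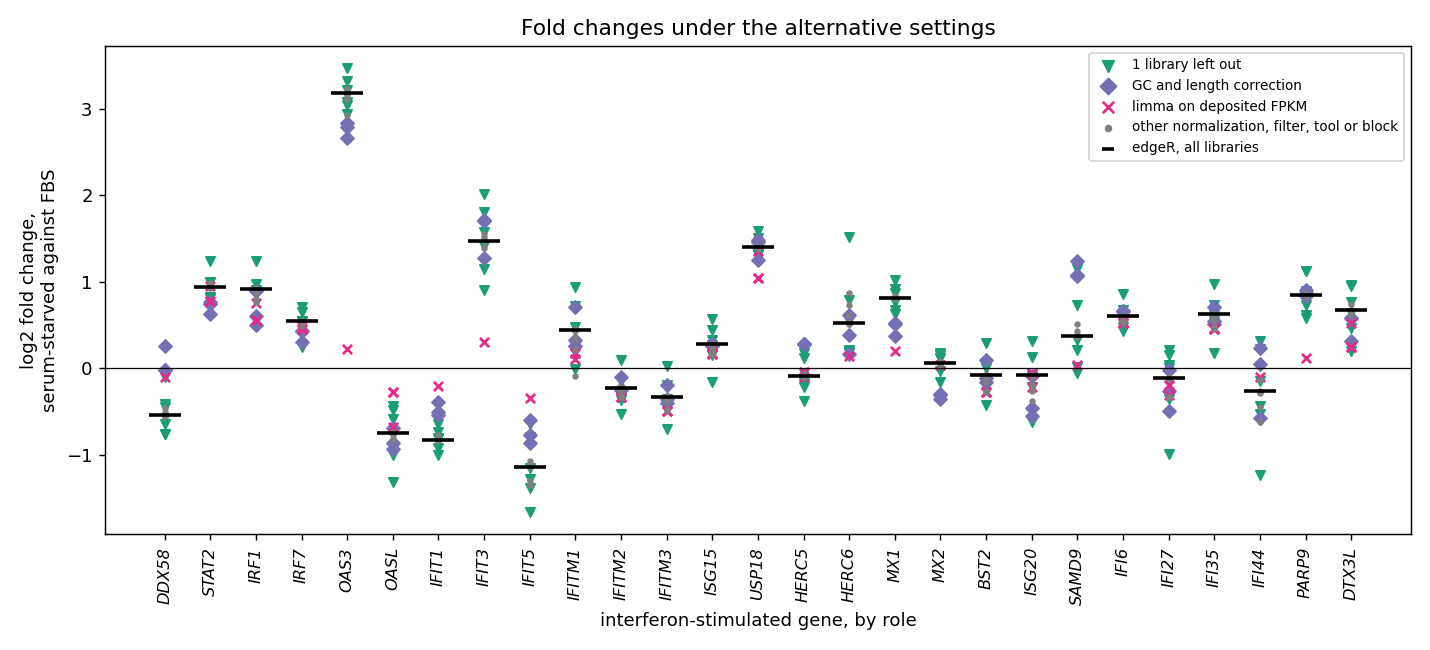
Each mark is the log2 fold change of serum-starved against FBS libraries for a tested gene under 1 setting, with the black bar for edgeR on all libraries. USP18 lies above 0 under every setting drawn, from 1.04 to 1.58. So do STAT2, OAS3, IRF1, IRF7, IFI6, IFI35, DTX3L, MX1, HERC6, PARP9 and IFIT3. OASL, IFIT1 and IFIT5 lie below 0 under every setting drawn, while IFI27, IFI44 and MX2 have marks on both sides of 0. All settings refit the same libraries, so a kept sign is not a separate observation.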

How the data were processed

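RNA of 6 Ovcar8 libraries was extracted with Trizol and a DNase column step and prepared with a NEBNext Ultra 2 kit, per the labels' protocols. The submitters' processing notes name STAR 2.6.1, DESeq2 and GRCh38; the counting tool, and whether it used strand, was not given in the sources at hand. The authors deposited raw counts per gene and FPKM values; the depth those FPKM imply was 0.869 to 1.19 times the library total, so they carry a scaling between libraries. Positions matched GENCODE 29.

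Counts were filtered with filterByExpr (minimum count 10, total 15), scaled by TMM and compared with edgeR 4.0.16 (robust quasi-likelihood, R 4.3.3), with Benjamini-Hochberg adjustment over 13772 genes and a threshold of 0.05. SEs come from the F statistic. The biological coefficient of variation was 36.3%. The exact interval of the pooled OAS3 ratio and the 3-count limit hold only counting error: without molecular identifiers, reads are not separate molecules. The intervals of the fold changes were built from the SEs, so they also hold the spread between libraries. The members, the pathway and marker lists and the rule for named genes (the members by role, those called under any setting, and up to 2 genes per list with the smallest p beside fixed genes) were chosen with earlier results of these data known. The GC and length correction enters splines with 5 degrees of freedom per library as offsets. DESeq2 1.42.0, limma 3.58.1 and other filters and scalings were alternatives. Some genes of the lists are not reported here.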

Additional observations from a re-analysis of the deposited data

How the results depend on the processing

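Depth limits what can be read: 8 of the 35 genes had too few counts for a test, and OAS3 was near the limit of detection with FBS. Counts of genes passing over the whole table, 39 in edgeR (33 higher, 6 lower), were 25 with total counts alone, 127 without a low-count filter (83 higher, 44 lower), 154 in DESeq2 (114, 40), 125 with the GC and length correction (75, 50), 94 with the replicate block and that correction (60, 34) and 2 on log2(FPKM + 1) without a filter. Leaving out 1 library gave 4 (without FBS replicate 1) to 257 (without serum-starved replicate 3, 124 higher and 133 lower), and the GC and length correction without serum-starved replicate 3, chosen after seeing the data, gave 88 (52, 36). Of the tested interferon-stimulated genes, 1 passed in DESeq2 and 1 with the GC and length correction, and 0 to 1 with a library left out. Of the pathway genes, 1 passed without the filter, 2 in DESeq2, 1 with the GC and length correction, 1 with the block and correction, 1 with the correction without serum-starved replicate 3, and 0 to 2 with a library left out. The median log2 fold change of the tested members, 0.37, was 0.16 in limma-voom, 0.21 with the replicate block, 0.17 on log2(FPKM + 1), 0.11 on log2(FPKM + 0.1), 0.12 on log2(FPKM + 1) without a filter and 0.18 to 0.32 with a library left out. The FPKM filter (a mean of 0.5) left 17 of the 27 genes, and a fold change on the log2(FPKM + pseudocount) scale understates the change of low genes. The causes of these shifts were not tested.

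The fold change turned sign for IFITM1 in limma-voom (-0.094), for MX2 (-0.30), HERC5 (0.28) and IFI44 (0.23) with the GC and length correction, and for MX2 (-0.30), HERC5 (0.29) and IFI44 (0.053) with the replicate block and that correction. With the correction and without serum-starved replicate 3 it turned for BST2 (0.091), MX2 (-0.36), HERC5 (0.28) and DDX58 (0.25). Leaving out a library gave both signs for IFITM3 (-0.70 to 0.0255), IFITM2 (-0.52 to 0.10), BST2 (-0.42 to 0.30), MX2 (-0.16 to 0.18), ISG15 (-0.15 to 0.58), IFI27 (-0.99 to 0.21), ISG20 (-0.62 to 0.32), HERC5 (-0.38 to 0.17), IFITM1 (-0.012 to 0.94), IFI44 (-1.23 to 0.31) and SAMD9 (-0.055 to 1.15). It kept the sign but moved the value by over 1.5 times from all libraries for DDX58 (-0.76 to -0.10), IRF1 (0.55 to 1.24), IRF7 (0.25 to 0.70), OASL (-1.31 to -0.44), IFIT3 (0.90 to 2.01), IFIT5 (-1.66 to -0.65), HERC6 (0.18 to 1.51), IFI35 (0.18 to 0.97) and DTX3L (0.20 to 0.97). The labels do not say whether replicate numbers pair the libraries. Deviations from the group means correlated at -0.26, 0.10 and -0.08 for numbers 1, 2 and 3. Such deviations are tied within a group, so they cannot decide whether the libraries were paired. The replicate block called 43 genes and 0 members.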
